A study of Homo sapiens with 3 samples.

Results

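The array of A549 cells transfected with *miR-139-3p* was set directly against the array of A549 cells transfected with *miR-139-5p*. These were 2 of the 3 arrays of the series, chosen by their labels alone, and the remaining array held cells given the transfection reagent without a precursor (mock). A549 is an established human lung adenocarcinoma line, and its total RNA was turned into Cy3-labelled cRNA and hybridised to 1-colour Agilent gene expression arrays. All cells were grown in RPMI 1640 and treated with Lipofectamine RNAiMAX, and the precursors were used at 10 nM according to the methods. The series holds an array for each strand of pre-*miR-139*, and the study used it to look for genes lowered by *miR-139-3p*. The direct comparison asks where the strands differ when both arms were given a precursor, which the mock arm lacked. As there was 1 array for each condition, differences could not be checked against replicates or tested, and their precision is limited by the number of arrays. Slide 1 carried the *miR-139-5p* and mock arrays, slide 2 carried the *miR-139-3p* array, and therefore slide and transfected strand cannot be told apart. A control precursor was not analysed here. Each array read the RNA of a whole culture, so fewer cells of a kind and less RNA per cell cannot be told apart.

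A miRNA guides an Argonaute protein to mRNAs, mostly through pairing of its seed to the 3′UTR, and the mRNA is then translated less and degraded sooner. A hairpin precursor yields a 5p and a 3p strand, of which one, the guide strand, is usually retained while the passenger strand is discarded. For pre-*miR-139*, annotated in an intron of *PDE2A*, *miR-139-5p* is the strand called the guide and *miR-139-3p* the passenger. A549 cells carry a mutated *KEAP1* gene.

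Both mature sequences lie on the minus strand of chromosome 11 in GRCh38.p14, *miR-139-5p* at chr11:72615102-72615124 and *miR-139-3p* at chr11:72615066-72615088, and are given here from RefSeq because the seeds set which mRNAs each strand could pair with. Capitals mark the seed, bases 2 to 8 counted from the 5′ end.
miR-139-5p: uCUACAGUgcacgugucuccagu
miR-139-3p: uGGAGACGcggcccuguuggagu
Both strands have 23 bases, of which 52.2% in *miR-139-5p* and 65.2% in *miR-139-3p* were G or C. The seeds held the same base at 2 of 7 positions, and neither seed was shared by a mature miRNA of another hairpin among the 2545 mature miRNA entries of the RefSeq table. Bases 15 to 21 of *miR-139-5p* are the reverse complement of bases 1 to 7 of *miR-139-3p*, so these stretches of the strands can pair. The complement of the *miR-139-3p* seed as written in DNA is CGTCTCC and that of the *miR-139-5p* seed is ACTGTAG. The reporter insert from the 3′UTR of *TRIP13*, 62 bases long, held the first of these 1 time and the second 0 times. The stretch of 30 bases around it reads as follows, with the seed match in capitals.
TRIP13 insert: ccccacacagcCGTCTCCcagggaatccct

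Levels are log2 spot signals relative to the 75th percentile of their array, so that 0 is that percentile, and for each gene they are given in the order *miR-139-3p*, *miR-139-5p*, mock. A difference is the level on the *miR-139-3p* array minus that on the *miR-139-5p* array, and a single value in brackets after a gene or its levels is its difference. Probes of one gene had a median SD of their differences of 0.26 over the 3533 genes with 2 or more probes. On each array 60901 spots other than controls were read, of which 48.1% to 53.1% were well above background and 0 were saturated. Over 8 E1A spike-in probes, for RNA added during labelling, the difference averaged 0.25 with an SD of 0.21, against an SD of 0.89 over 13998 genes in the same range of signal. The epithelial keratins *KRT7*, *KRT8*, *KRT18* and *KRT19* and also *EPCAM*, *CDH1* and *MUC1* were well above background on both arrays. The lung markers *NKX2-1* and *SFTPB* were not, on any of the 3 arrays. Of the markers of other cell types, *COL3A1*, *DCN*, *LUM*, *PECAM1* and *KDR* were not well above background on either miRNA array. Between the *miR-139-3p* and *miR-139-5p* arrays, the summed signal of the 5 fibroblast markers was 38.3 against 112, that of the 4 endothelial markers 38.6 against 20.1, and that of the 5 blood cell markers 94.6 against 322. With *miR-139-3p*, 2 fibroblast, 2 endothelial and 3 blood cell markers were well above background, and with *miR-139-5p* these numbers were 2, 1 and 2. The alveolar markers had 6 of 8 and 4 of 8, with summed signals of 669 and 343. The largest signals of the fibroblast and blood lists on the *miR-139-5p* array were those of *COL1A1* (-2.02) and *CD14* (-2.11), both lower with *miR-139-3p*. Their part in the results below was not tested.

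Cells given *miR-139-3p* differed from cells given *miR-139-5p* over much of the transcriptome. Genes of DNA replication, of mitosis and of homologous recombination were lower with *miR-139-3p*, with *MKI67* 4.99-fold and *MCM2* 4.63-fold lower, while targets of p53 were higher, with *CDKN1A* 6.02-fold and *MDM2* 4.64-fold higher. Of the 15428 genes with a RefSeq symbol and a value, 4303 (27.9%) were lower with *miR-139-3p* by more than 0.5 on the log2 scale and 4075 (26.4%) were higher, 48.6% of those past the threshold being higher. Of these values, 14036 were measured on both arrays and 1392 are bounds for genes that were well above background on 1 of the arrays. Bounds made up 188 of the lower and 802 of the higher genes. The median of the measured differences was -0.09. Over all 24017 names with a value, with or without a RefSeq symbol, 5245 were lower and 8382 higher. Of those past the threshold, 61.5% were higher. With normexp background correction, *MKI67* was 2.99-fold and *MCM2* 3.54-fold lower and *CDKN1A* 2.49-fold higher. Here and below, normexp correction includes an added offset of 50, and the correction and the offset were not tried apart. The split of the genes past 0.5 moved with the processing, since 32.3% were higher with scaling to the E1A probes, 60.5% with a percentile of the probes detected on every array and 35.8% with normexp background correction. These moved the median of all measured genes by -0.25, 0.16 and 0.05. Against the mock array, which both comparisons share, the shares for *miR-139-3p* were 27.9% lower and 26.5% higher, and those for *miR-139-5p* were 12.3% and 10.7%. Mock lay on slide 1 with *miR-139-5p*, while *miR-139-3p* lay on slide 2. Slide and strand therefore cannot be told apart in these shares or in later comparisons with mock.

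**Figure D1:**
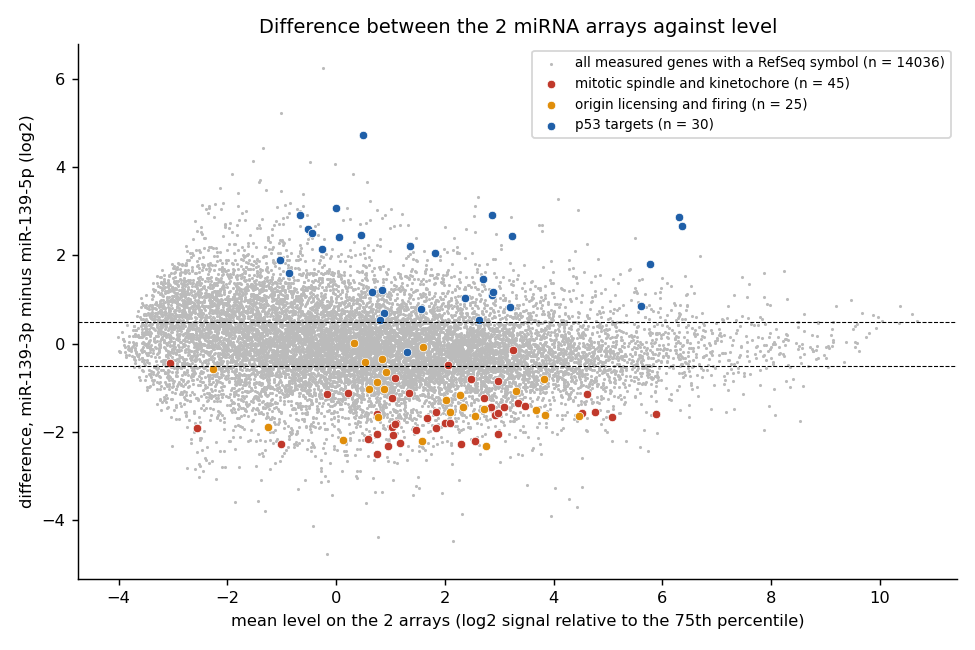
Difference between the arrays on the log2 scale (vertical) against the mean level of the 2 arrays (horizontal, log2 relative to the 75th percentile), 1 point per measured gene, with the dashed lines at 0.5 either way. The 45 mitotic and 25 origin genes lie mostly below the lower line and 29 of the 30 p53 targets above the upper line, at low and high levels alike.

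The largest measured differences ran in both directions (plot of the levels on each array). Higher with *miR-139-3p* were 2 subunits of NMDA-type glutamate receptors. *GRIN2C* had levels of 2.88, -3.36 and -1.81, a 75.6-fold difference, and *GRIN3B* had levels of 2.0, -2.06 and -0.49. *PLA2G4C*, a cytosolic phospholipase A2, stood at 1.61, -3.62 and -2.32 (37.6-fold). *TP53INP1*, which encodes a p53-induced nuclear protein, stood at 2.86, -1.86 and -0.35 (26.4-fold). In each of these 4 genes the *miR-139-3p* array was the highest of the 3 and the *miR-139-5p* array the lowest, below mock. These folds were smaller under normexp correction with its offset, where *GRIN2C* was 8.17-fold, *PLA2G4C* 5.65-fold and *TP53INP1* 8.24-fold higher. The adaptor *SHC2* (1.58, -2.55 and -1.99), *KANK3* (2.23, -1.62 and -0.98), *ARMH1* (0.01, -3.83 and -2.29), the F-box gene *FBXL16* (2.41, -1.26 and -0.09) and the long non-coding RNA *LINC00639* (0.41, -3.25 and -2.97) followed, with differences of 3.66 to 4.12. *LINC00639* had 2 further probes that were dim on every array, and its difference was 1.11 with no filter on dim probes. Among small nucleolar RNAs, *SNORD42A* differed by 4.45, while its host gene *RPL23A*, in whose intron it lies, differed by -0.01. *SNORD116-11* and *SNORD116-12* differed by 4.14 and 3.72; they belong to a family of closely similar copies, so the copy measured is uncertain.

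Lower with *miR-139-3p* was *ST6GAL2*, a sialyltransferase, with levels of -2.55, 2.22 and 1.26 (27.4-fold). *SLC2A1*, the glucose transporter GLUT1, stood at -0.07, 4.39 and 3.81 (a difference of -4.46). The matrix glycoprotein gene *EFEMP1* had -1.41, 2.97 and 2.26, a difference of -4.38. With normexp correction *ST6GAL2* was 6.0-fold lower. Of the 112 named genes past the threshold, the fold of 60 was smaller by over 1.5 times under that correction. Over the 12 largest differences each way, it gave 1.21 to 3.04 for the higher and -3.72 to -1.40 for the lower genes, and the fold of 20 of the 24 fell by over 1.5 times. In *ST6GAL2*, *SLC2A1* and *EFEMP1* the *miR-139-5p* array was the highest and the *miR-139-3p* array the lowest. The secreted binding protein of insulin-like growth factors *IGFBP1* (-2.48, 1.65 and 1.51) and the calcium-binding protein *S100P* (2.0, 5.89 and 5.78) had *miR-139-5p* levels near mock, as had *UNCX*, a homeobox gene (2.53, 6.05 and 6.16), the neuronal calmodulin-binding protein gene *NRGN* (-3.22, 0.34 and 0.63) and *COX8A*, a subunit of cytochrome c oxidase (2.58, 6.28 and 6.51). The *miR-139-5p* levels of these 5 genes lay between -0.29 and 0.14 from mock. The 2 probes of *COX8A* differed with an SD of 0.17, and each of the others named here had 1 probe well above background on both arrays. For the tight junction gene *CLDN2* (0.39, 4.23 and 2.84), the transcription factor *ETS2* (-3.20, 0.60 and -0.24), the trefoil factor *TFF1* (-1.26, 2.34 and 0.09) and *NAV2* (-0.30, 3.12 and 1.49), the mock level lay between the others. For *TFF1* the larger step was the one between *miR-139-5p* and mock (2.26 against -1.34 for *miR-139-3p*).

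**Figure D2:**
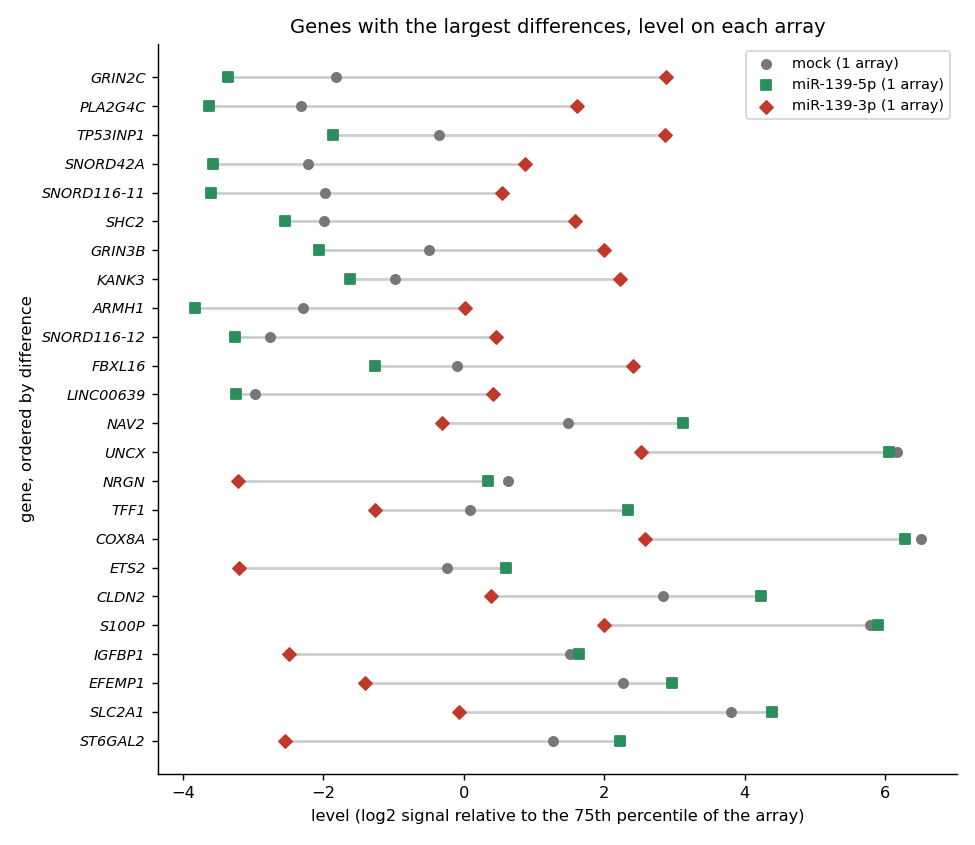
Level of the 12 genes most higher and the 12 most lower with *miR-139-3p* among genes measured on both arrays, on each of the 3 arrays (horizontal, log2 relative to the 75th percentile; 1 array per condition, no error). Grey lines join the *miR-139-5p* and *miR-139-3p* levels, and mock lies between them for 21 of the 24 genes.

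Among genes that were well above background with *miR-139-3p* but not with *miR-139-5p*, the largest bounds were those of 5 genes. *NPHS1*, encoding nephrin, was at least 25.4-fold higher, *NTN1*, encoding the guidance cue netrin-1, at least 23.0-fold, the receptor *TNFRSF14* at least 22.6-fold, *FEZ1* at least 21.3-fold and the p53-induced non-coding RNA *PINCR* at least 19.5-fold. With normexp correction the differences of these 5 genes were 2.41-fold to 3.31-fold. *TNFRSF14* had further probes that were dim on every array, with differences of 0.945 and -0.68. In the other direction, 0 genes met the same rule, which asked for a level above the 75th percentile on the brighter array.

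Origin licensing loads the MCM2-7 helicase on DNA and origin firing turns it on with CDC45 and the GINS complex. Of the 25 of 27 such genes with a value, 21 were lower with *miR-139-3p* and 0 were higher, with a median of -1.28, against 27.9% lower and a median of -0.04 over all genes with a value, bounds included. *GINS2*, a GINS subunit, had levels of 1.61, 3.91 and 3.90, a difference of -2.31. The helicase subunit *MCM2* had 0.47, 2.69 and 3.40 (-2.21), and *TICRR*, which brings the helicase activators to origins, had -0.96, 1.22 and 1.07 (-2.18). The levels with *miR-139-5p* were thus near mock for *GINS2* and *TICRR* and -0.71 from mock for *MCM2*. All 6 subunits of the helicase were lower, with differences from -1.15 for *MCM5* to -2.21 for *MCM2*. *ORC4*, a subunit of the origin recognition complex, had levels of 0.34, 0.32 and 0.18 and was the member farthest the other way, with a difference of 0.02 that turned negative with E1A scaling, quantile normalization, no scaling and the deposited table. *MCM10* and *CDC45* had outlier spots alone. The list medians against mock were -1.38 (*miR-139-3p*) and -0.06 (*miR-139-5p*).

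At the replication fork and in nucleotide supply, 27 of the 34 genes with a value, of 35 listed, were lower and 0 were higher, with a median of -1.04. Over all genes 27.9% were lower and 26.4% higher. *RRM2*, the small subunit of ribonucleotide reductase, had levels of 0.24, 2.21 and 1.79 (-1.97), and *UHRF1*, which recruits the maintenance methyltransferase to hemimethylated DNA, had -1.78, 0.13 and 0.45 (-1.91). *RFC3*, a clamp loader subunit, had -1.81, 0.04 and 0.40 (-1.86). The clamp *PCNA* differed by 0.05 and the single-strand binding subunit *RPA1* by 0.17, its 2 probes having an SD of 0.56. The direction of *RPA1* turned under E1A scaling, normexp correction and the use of the brightest probe. Of *POLA2*, no probe was matched. Against mock the medians were -1.16 (*miR-139-3p*) and -0.16 (*miR-139-5p*).

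Genes of the mitotic spindle and kinetochore had a median of -1.60, with 42 of the 45 with a value lower and 0 higher. The shares over all genes were 27.9% lower and 26.4% higher. *CENPE*, a kinetochore motor, had levels of -0.49, 2.0 and 0.88 (-2.49) and here the *miR-139-5p* array was above mock by 1.13. The proliferation marker *MKI67* had -0.20, 2.12 and 2.03 (-2.32, SD 0.29 over 3 probes), and *FOXM1*, a transcription factor of G2 and M phase genes, had 1.15, 3.43 and 3.40 (-2.28). The *miR-139-5p* levels of these genes were 0.09 and 0.03 from mock. The mitotic kinases *AURKA* (-1.43), *AURKB* (-1.88), *BUB1* (-1.79) and *TTK* (-1.12) and the cyclins *CCNB1* (-1.34) and *CCNA2* (-1.79) were lower as well. The checkpoint protein *BUB3* had 3.18, 3.31 and 3.45, a difference of -0.13 that turned positive under quantile normalization, in the deposited table, with the percentile over detected probes and with the trend on level removed. *PLK1* had no matched probe. Against mock the medians were -1.54 (*miR-139-3p*) and -0.05 (*miR-139-5p*).

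**Figure D3:**
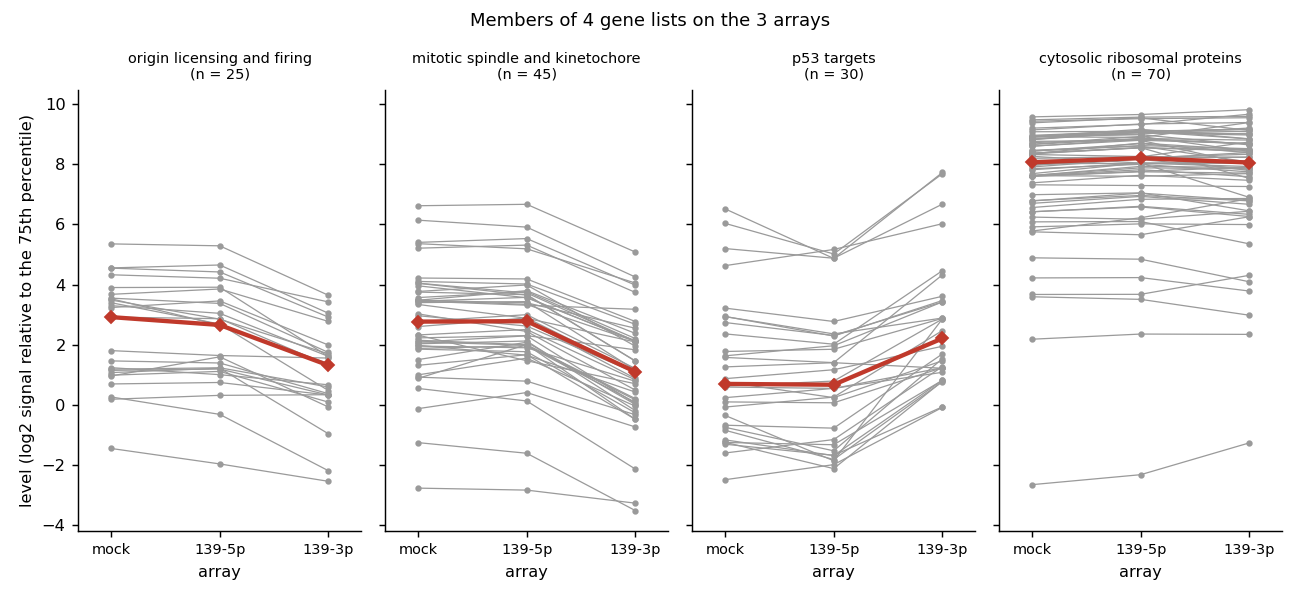
Level of each measured member (grey) and the median over members (red) on each of the 3 arrays (log2 relative to the 75th percentile, 1 array each). In the order mock, *miR-139-5p*, *miR-139-3p* the medians are 2.92, 2.66 and 1.31 for origin genes, 2.77, 2.78 and 1.1 for mitotic genes, 0.70, 0.67 and 2.21 for p53 targets and 8.06, 8.21 and 8.06 for ribosomal protein genes.

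Homologous recombination and the Fanconi anaemia pathway repair double-strand breaks and crosslinks. All 26 listed genes had a value, of which 20 were lower and 0 higher, with a median of -1.24, against 27.9% lower and 26.4% higher over all genes. *RAD51AP1*, which acts in strand exchange, had levels of -2.87, -0.09 and -0.76 (-2.77), *BARD1*, the partner of BRCA1, had -1.02, 1.40 and 1.32 (-2.42), and the helicase *BLM* had 0.63, 2.94 and 2.88 (-2.31). *BRCA1* differed by -1.70. *PALB2*, which links BRCA1 to BRCA2, had -0.65, -1.06 and -0.71 and a difference of 0.41, within the threshold. The medians against mock were -1.27 (*miR-139-3p*) and 0.04 (*miR-139-5p*).

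E2F factors drive genes of the G1 to S transition, are held by pocket proteins, and are released by cyclin-dependent kinases. In the list of E2F factors, pocket proteins, cyclins and kinase inhibitors, 13 of 26 genes were lower and 3 higher, with a median of -0.40, against 27.9% lower and 26.4% higher over all genes. The activator E2F genes *E2F1* (-0.26, 1.65 and 1.97) and *E2F2* (0.34, 2.98 and 2.92) differed by -1.90 and -2.64, and the repressor *E2F8* (-3.72, -1.08 and -0.94) by -2.64, which was -0.71 with normexp correction. The repressor *E2F7*, in contrast, was 0.87 higher. The G1 to S cyclins *CCNE1* and *CCNE2* were at -1.21 and -1.22, while *CCND1*, a cyclin of G1, was at -0.28, within the threshold. Of the pocket proteins, *RBL1* was lower past the threshold (-1.17) and *RB1* and *RBL2* lay within it at 0.15 and 0.36. The kinase inhibitors went both ways, with *CDKN1A* at 2.59 and *CDKN1C* at 2.11 against *CDKN2C* at -1.73. *CCND2* and *CDKN2B* were too dim for a value.

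The promoters of these genes, 250 bases before to 50 bases after the start site in the RefSeq table (GRCh38.p14), were searched on both strands for 3 forms of the E2F element (TTTCGCGC, TTTGGCGC or TTTCCCGC), for the CHR element of G2 and M phase genes (TTTGAA or TTCGAA) and for CCAAT, none of which contains another. An E2F form was present in 12 of 23 origin genes with a promoter in the table (52.2%), 12 of 30 fork genes (40.0%), 4 of 24 recombination genes (16.7%) and 4 of 39 mitotic genes (10.3%), against 763 of all 27305 promoters (2.79%) and 4.32% of those of protein-coding genes with a value. A CHR form was present in 30 of 39 mitotic genes (76.9%) and 2 of 23 origin genes (8.70%), against 16.6% of all promoters. CCAAT was present in 30 of 39 mitotic genes (76.9%) against 35.7% of all, and also in 60.9% of origin, 53.3% of fork and 45.8% of recombination genes and in 54.2% of the p53 targets described below. Such matches describe these windows and are not shown to be bound. The windows below belong to the genes with the largest differences of their list that held an element, and show 30 bases of the gene's own strand with the element in capitals.
GINS2, chr16:85688967-85688996, minus strand, element 31 bases before the start: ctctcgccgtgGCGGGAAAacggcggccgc
MCM2, chr3:127598402-127598431, plus strand, element 2 bases after the start: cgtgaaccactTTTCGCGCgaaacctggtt
UHRF1, chr19:4909476-4909505, plus strand, element 14 bases before the start: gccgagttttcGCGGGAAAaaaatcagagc
RFC3, chr13:33818083-33818112, plus strand, element 55 bases before the start: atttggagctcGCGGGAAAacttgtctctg
MKI67, chr10:128126453-128126482, minus strand, element 47 bases before the start: ttagcgccagaaTTTGAAtcttcgttttcg
The first 4 carry an E2F form, as written or as its reverse complement, and belong to genes that differed by -2.31, -2.21, -1.91 and -1.86. The last carries the CHR form of *MKI67*.

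The p53 pathway responds to DNA damage and other stresses, and its targets are genes of cell cycle arrest, apoptosis and repair. Of 30 listed targets, each with a value measured on both arrays, 29 were higher on the *miR-139-3p* array and 0 lower, with a median of 1.85 (1.15 with normexp correction), against 26.4% higher over all genes. Arrest genes were among them. *CDKN1A*, the p21 inhibitor of cyclin-dependent kinases, had levels of 0.77, -1.82 and -0.84 (2.59), and the antiproliferative gene *BTG2* had 4.32, 1.40 and 1.58 (2.92). *TP53INP1*, described above, differed by 4.72, the largest in the list. Of the repair genes, the translesion polymerase *POLH* had 1.54, -1.53 and -0.75 (3.06), *RRM2B*, the p53-induced subunit of ribonucleotide reductase, 0.82, -1.69 and -1.17 (2.51), and the damage sensors *XPC* and *DDB2* differed by 1.23 and 0.84. Thus the ribonucleotide reductase subunits *RRM2* and *RRM2B* lay on opposite sides. Of the death genes, *BBC3* had 4.46, 2.02 and 2.36 (2.45) and the death receptor *FAS* 1.69, -0.78 and -0.68 (2.47), *BAX* was at 0.53, and *PMAIP1* had 1.22, 1.40 and 1.26, the single target within the threshold at -0.18. Feedback was represented by the ubiquitin ligase *MDM2*, with 2.47, 0.26 and -0.07 (2.21), and by the phosphatase *PPM1D* (0.69). The secreted factor *GDF15* had 7.73, 4.87 and 6.52 (2.86). Against mock, 26 of the 30 were higher and 0 lower with *miR-139-3p*, with a median of 1.55, whereas *miR-139-5p* had 2 higher and 10 lower, with a median of -0.25. The shares over all genes against mock were 26.5% higher and 27.9% lower with *miR-139-3p*, and 10.7% and 12.3% with *miR-139-5p*. The *miR-139-5p* level lay below mock for *CDKN1A* (-0.97), *TP53INP1* (-1.51), *POLH* (-0.78) and *RRM2B* (-0.52) and above it for *MDM2* (0.33). A full p53 element was searched as a pair of half-sites that each match the consensus without a mismatch. It was found in 0 of the 24 promoters of these targets in the table and in 8 of all 27305. A form this rare cannot show whether the targets have p53 elements, and sequence outside the windows was not searched. An E2F form was present in 3 of the 24 promoters (12.5%).

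**Figure D4:**
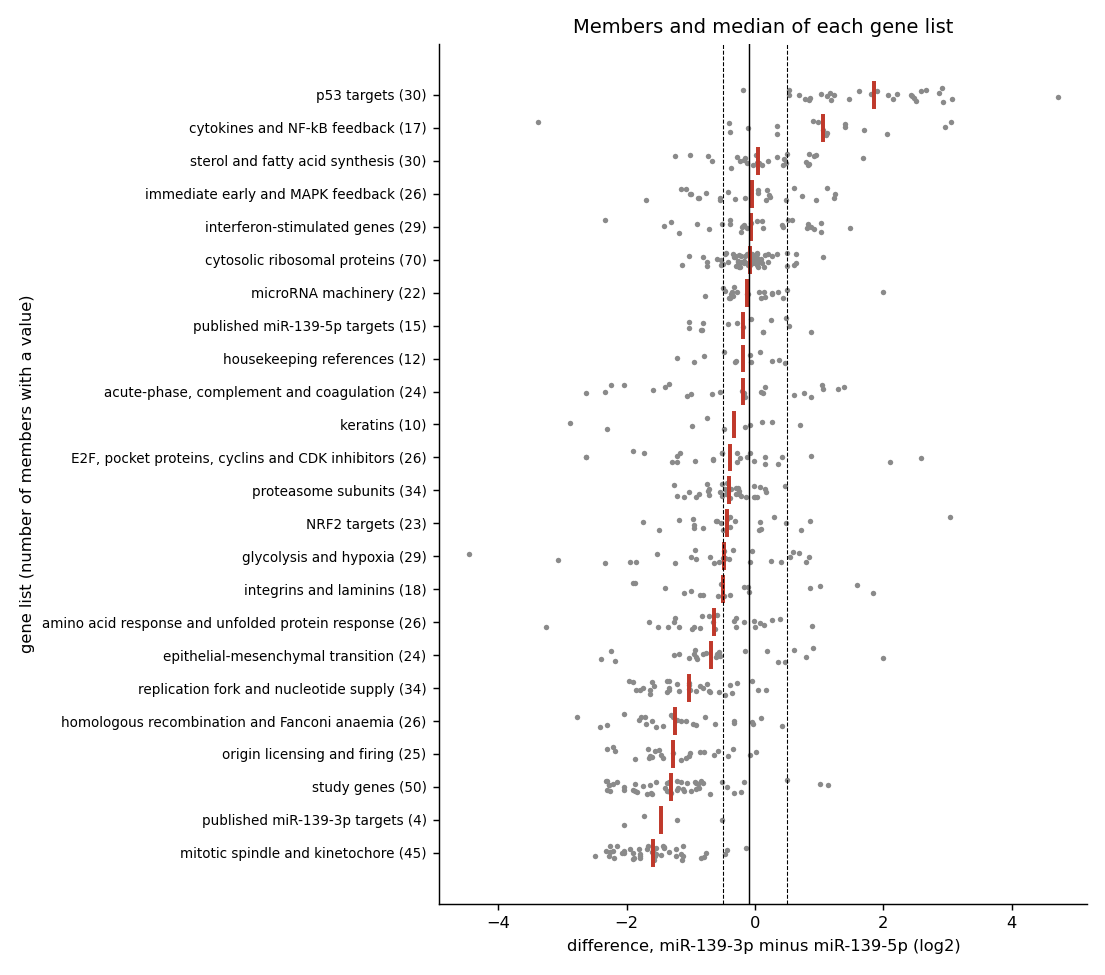
Difference of every member with a value (grey points, log2, *miR-139-3p* minus *miR-139-5p*) and median (red bar) for the 24 gene lists, with the number of members with a value in brackets. The solid line is the median of all measured genes, -0.09, and the dashed lines are the threshold of 0.5 either way; the medians run from -1.60 for mitotic genes to 1.85 for p53 targets.

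The study's own list of candidate *miR-139-3p* targets was chosen by the study partly on these arrays, so its direction is no independent evidence. Of the 51 genes of that list used here, which leave out 1 of the study's, 50 had a value, 43 being lower and 2 higher, with a median of -1.31. Over all genes, for this list and the next, 27.9% were lower and 26.4% higher. *TRIP13*, an AAA ATPase that remodels the spindle checkpoint protein MAD2 and carries the seed match printed above, had levels of -0.27, 1.77 and 1.85 (-2.04, SD 0.29 over 2 probes). The keratin *KRT80* had 0.42, 2.72 and 3.36 (-2.30). *YBX2*, with -1.26, -2.41 and -0.85, was the farthest the other way at 1.14 (0.39 with normexp correction), and there both miRNA arrays were below mock. Of 5 published *miR-139-3p* targets, taken from general knowledge, 4 had a value and all 4 were lower, but *TRIP13* and *CHEK1* are also in the study's list, so that their direction was part of that choice. Besides *TRIP13* they were the focal adhesion protein *PXN* (-0.30, 1.43 and 1.65, difference -1.73), the checkpoint kinase *CHEK1* (-0.19, 1.03 and 0.98, difference -1.22) and the RNA-binding protein *ELAVL1* (-0.01, 0.51 and 0.51, difference -0.52), while *MMP11* was too dim. *ELAVL1* lay within the threshold at -0.30 under normexp correction and at -0.36 with the percentile over detected probes. The *miR-139-5p* levels of these 4 genes were between -0.22 (*PXN*) and 0.05 (*CHEK1*) from mock.

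Of 16 published *miR-139-5p* targets, 15 had a value, 5 of them lower and 2 higher on the *miR-139-3p* array, with a median of -0.18. Over all genes with a value, 27.9% were lower and the median was -0.04. The splicing factor *HNRNPF* was higher (2.99, 2.11 and 3.31, difference 0.88), its *miR-139-5p* level being -1.19 from mock. The kinase *ROCK2* was 0.53 higher, the mean of probes at 0.65 and 0.40. Their *miR-139-5p* levels lay above mock, at 1.36 against 1.12 and 0.32 against 0.16. The receptor kinase *MET* (5.02, 6.05 and 5.53, difference -1.03), the adaptor *IRS1* (-0.73, 0.09 and 0.47, difference -0.82) and *ZEB2*, a repressor of epithelial genes (-3.74, -2.72 and -4.16, difference -1.03), were lower with *miR-139-3p*. Under normexp correction *IRS1* and *ZEB2* lay within the threshold, at -0.47 and -0.12. For *MET* and *ZEB2* the *miR-139-5p* level was the highest of the 3. The medians of this list against mock were 0.20 (*miR-139-5p*) and -0.09 (*miR-139-3p*).

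In the amino acid and unfolded protein response, 15 of 26 genes were lower with *miR-139-3p* and 1 higher, with a median of -0.64. For this and the following lists the shares over all genes were 27.9% lower and 26.4% higher, or 35.0% and 13.2% in the highest of 4 equal bins of the mean level, which starts at 2.3 and has a median of -0.26. The median levels of the amino acid, glycolysis and NRF2 lists lay in that bin on both arrays. The heavy and light chains of the large neutral amino acid transporter, *SLC3A2* (2.44, 3.95 and 4.51) and *SLC7A5* (2.89, 6.15 and 6.16), differed by -1.51 and -3.26, and *CHAC1*, a glutathione-degrading enzyme induced by ATF4, by -1.65 (0.11, 1.76 and 1.79). *ATF4* was lower past the threshold at -0.85, and *ATF3*, a stress-induced repressor, was 0.89 (0.15, -0.74 and -1.13), with an SD of 0.69 over 3 probes. In glycolysis and the hypoxia response, 13 of 29 were lower and 5 higher, with a median of -0.49. Beside *SLC2A1*, the prolyl hydroxylase *EGLN3* had -3.74, -0.68 and -1.64 (-3.07) and hexokinase *HK2* -3.54, -1.19 and -1.87 (-2.34), whereas the neuronal enolase *ENO2* had 2.47, 1.62 and 1.79 (0.85). With normexp correction *EGLN3* was at -0.76 and *HK2* within the threshold at -0.42. The glucose transporter genes *SLC2A1* and *SLC2A3* lay on opposite sides, at -4.46 and 0.80.

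Of the targets of NRF2, the antioxidant factor that is constitutively active in A549 through its mutated KEAP1, 11 of 23 were lower and 3 higher, with a median of -0.45. The aldo-keto reductase *AKR1B10* had 7.66, 9.41 and 9.10 (-1.74), the glutathione peroxidase *GPX2* 5.57, 7.07 and 6.56 (-1.50) and the pentose phosphate enzyme *PGD* 5.19, 6.38 and 6.78 (-1.18). *HMOX1*, haem oxygenase 1, stood apart at 3.04, 8.2-fold higher with *miR-139-3p*. Its levels were 5.96, 2.93 and 5.67, so that the *miR-139-5p* array was the low one, at -2.74 from mock, and the *miR-139-3p* array was 0.29 from mock.

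Cytokine genes and feedback inhibitors of NF-kB had a median of 1.06, with 11 of 17 higher and 1 lower, and 7 of the 24 listed had no value. *IL32* had 0.81, -2.25 and -1.46 (3.06, SD 0.03 over 2 probes), the adhesion molecule *ICAM1* -0.88, -3.83 and -3.72 (2.96), and the NF-kB inhibitor *TNFAIP3*, also called A20, -0.03, -2.09 and -3.21 (2.06). *IL11* went the other way with 0.25, 3.63 and 1.58, a difference of -3.38, with the highest level on the *miR-139-5p* array. The median of this list was 0.34 with no filter on dim probes, its lowest value over the alternatives. Interferon-stimulated genes were split, with 7 of 29 lower and 9 higher. Their median of -0.07 turned positive with the percentile over detected probes and with normexp correction. The antiviral sensor *IFIH1* had -0.24, -1.72 and -2.47 (1.48), against -1.57, 0.77 and -0.04 (-2.34) for the oligoadenylate synthetase *OAS1* and -0.28, 1.14 and 0.83 (-1.42) for the ISG15 protease *USP18*.

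In the sterol and fatty acid synthesis list, 4 of 30 were lower and 8 higher, and the median of 0.05 turned negative with E1A scaling and with no scaling. *FDPS*, which makes farnesyl pyrophosphate, had 6.67, 5.75 and 5.43 (0.91) and the sterol desaturase *SC5D* -1.31, -3.0 and -3.43 (1.69), with mock the lowest array in both. Against the shared mock array the list medians were 0.59 (*miR-139-3p*) and 0.40 (*miR-139-5p*). The immediate early and MAPK feedback list had 10 of 26 lower and 6 higher, with a median of -0.06 that turned positive with the percentile over detected probes, and medians against mock of 0.21 and 0.46. The immediate early factor *EGR1* had levels of 0.22, 0.17 and -2.42, which differed by 0.05. The MAPK phosphatase *DUSP5* had -0.06, 1.65 and 1.00 (-1.71), the ETS factor *ETV4* -0.16, 0.99 and 0.69 (-1.15), *JUNB* -1.09, -0.02 and -0.48 (-1.07) and *JUND* 0.93, -0.31 and 0.13 (1.25).

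Of 24 genes of the epithelial-mesenchymal transition, 16 were lower with *miR-139-3p* and 4 higher, with a median of -0.68, against 27.9% lower and 26.4% higher over all genes. The repressor *SNAI1* had -1.19, 1.21 and 0.88 (-2.40) and the urokinase receptor *PLAUR* 0.36, 1.62 and 1.38 (-1.26). *FN1*, encoding fibronectin, was not well above background with *miR-139-3p* and at least 4.74-fold lower there. The epithelial genes *CDH1* and *EPCAM* were 0.90 and 0.80 higher, *CLDN4* and *DSP* were -0.95 and -0.76, and the matricellular gene *CCN2* had 0.72, -1.28 and -0.75 (2.0). Of 18 integrins and laminins, 9 were lower and 4 higher, with a median of -0.51. *ITGA6* had 0.03, 1.89 and 1.07 (-1.86), *LAMC1* 2.88, 4.29 and 3.40 (-1.40) and *LAMA3* 0.07, 1.18 and 0.68 (-1.10), and in all 3 the *miR-139-5p* level was the highest. *LAMA4* had -0.55, -2.39 and -2.35 (1.83) on 1 probe, and its value with no filter on dim probes was -0.35, the mean with 3 dim probes. Of 10 keratins with a value, 4 were lower and 1 higher (median -0.32), from *KRT4* with -1.71, 1.17 and 2.62 (-2.88) and *KRT7* with 7.85, 8.83 and 8.95 (-0.98) to *KRT19* with 6.66, 5.95 and 6.47 (0.71, or 0.46 with E1A scaling). Of 24 acute-phase, complement and coagulation genes, 11 were lower and 7 higher, with a median of -0.19 that moved to -0.06 with normexp correction, -0.72 with quantile normalization and -0.78 in the deposited table. All 3 fibrinogen chains were lower, *FGA* with -1.95, 0.39 and -0.12 (-2.34), *FGB* with -0.01, 2.62 and 1.66 (-2.63) and *FGG* at -1.58, as was prothrombin, *F2* (-1.57, 0.67 and 0.03, difference -2.24). Complement factor B, *CFB*, had -2.59, -3.88 and -3.02 (1.29), and lay within the threshold under normexp correction at 0.19.

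Of 70 cytosolic ribosomal protein genes with a value, of 78, 8 were lower and 4 higher, with a median of -0.08 that turned positive with the percentile over detected probes. *RPL14* had 6.90, 8.04 and 7.69 (-1.15), *RPS28* 7.53, 8.55 and 8.35 (-1.03) and *RPL27A* -1.26, -2.32 and -2.66 (1.06, or 0.36 with normexp correction). These genes have many processed copies, and such probes can share signal with them. Of 34 proteasome subunits, 13 were lower and 0 higher, with a median of -0.40, near the 35.0% lower of the highest bin of level, where most lie. The largest difference was that of *PSMA5* (4.6, 5.86 and 5.69, difference -1.26). Of 12 housekeeping references, 3 were lower and 0 higher (median -0.19), namely the transferrin receptor *TFRC* (3.55, 4.76 and 4.42, difference -1.22), *B2M* (3.61, 4.56 and 4.33, difference -0.94) and *HPRT1* (3.75, 4.54 and 4.13, difference -0.79), while *ACTB* was at -0.07. Of 22 genes of miRNA processing and silencing, 2 were lower and 1 higher, and the median of -0.12 turned positive with the percentile over detected probes. *CNOT7*, a deadenylase subunit, had 2.01, 2.79 and 2.78 (-0.78, or -0.49 with the brightest probe), *DGCR8*, the partner of DROSHA, 0.31, 0.81 and 0.91 (-0.50, within the threshold under 5 of the alternatives) and the Argonaute gene *AGO4* -0.56, -2.55 and -2.19 (1.99). *AGO2* was at -0.34. *DICER1* had 2.29, 2.76 and 1.53, a difference of -0.47, with both miRNA arrays above mock.

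RNA classes did not lie at the same place (plot of the cumulative shares). Of 13449 protein-coding genes with a value, 4116 were lower and 3094 higher, with a median of the measured differences of -0.16. Of 1333 long non-coding RNAs, 127 were lower and 690 higher, with a median of 0.51 (-0.02 with no filter on dim probes), and of 236 small nucleolar RNAs, 11 were lower and 104 higher, with a median of 0.41. These counts include bounds, which the medians leave out. Bounds made up 166 of the lower and 603 of the higher protein-coding genes. For long non-coding RNAs these numbers were 22 and 164, and for small nucleolar RNAs 0 and 5. The share of genes that were higher also moved with the level, from 38.7% in the lowest of 4 equal bins of the mean level to 13.2% in the highest, and the share lower from 20.3% to 35.0%. The *miR-139-3p* array, on which these classes were higher, had a median local background of 16.0, against 23.0 with *miR-139-5p* and 24.0 with mock, and 1526 outlier spots against 935 and 614. Of the ERCC control spots, 7.91% were well above background with *miR-139-3p*, compared with 1.70% and 2.55%, and the part of these measures in the result was not tested. Within these bins, from lowest to highest, the medians were 0.53, 0.52, 0.47 and 0.45 for long non-coding RNAs and 0.15, -0.13, -0.24 and -0.28 for protein-coding genes. For small nucleolar RNAs they were 0.40, 0.28, 0.44 and 0.91. Against mock, the medians were 0.47 (*miR-139-3p*) and -0.05 (*miR-139-5p*) for long non-coding RNAs, and 0.66 and 0.22 for small nucleolar RNAs. Under the other 10 settings the median of the long non-coding RNAs was 0.19 to 0.67. That of the small nucleolar RNAs was 0.17 to 0.57 under all 11, and that of the protein-coding genes was below 0 but for 0.00 with the percentile taken over probes well above background on all arrays.

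**Figure D5:**
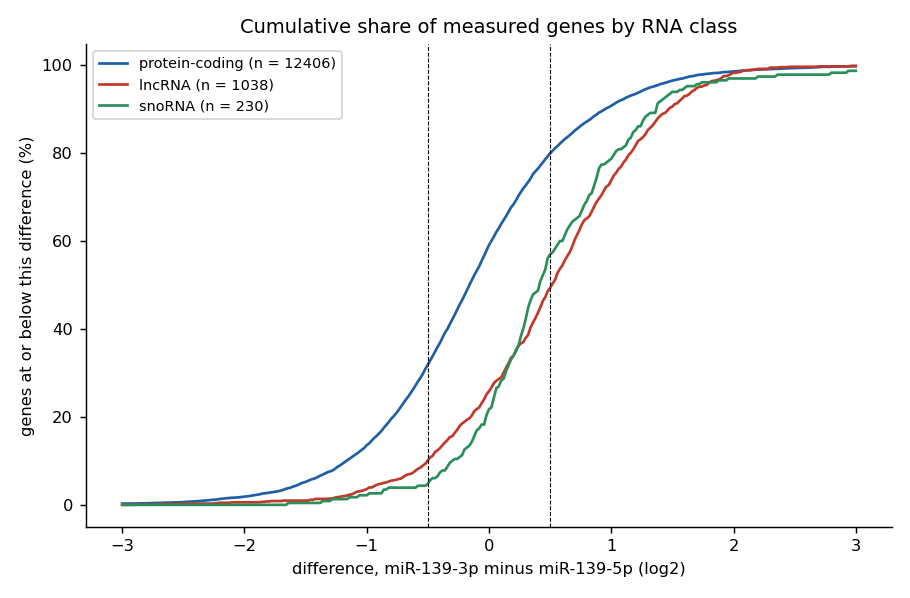
Cumulative share of measured genes (vertical, percent) at or below each difference (horizontal, log2, *miR-139-3p* minus *miR-139-5p*) for protein-coding genes, long non-coding RNAs and small nucleolar RNAs, with dashed lines at 0.5 either way. The curves of the non-coding classes lie to the right, with medians of 0.51 and 0.41 against -0.16, though with no filter on dim probes the median of the long non-coding RNAs was -0.02.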

How the data were processed

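For each spot of the 3 arrays the authors deposited a background-subtracted intensity read by Agilent Feature Extraction 12.1.1.1, without normalization between arrays. They also deposited log2 values per probe. From a comparison with the spot intensities (Pearson r 1.0), the latter are quantile-normalized over the 3 arrays, with a median of 2.21 in each column, and served as an alternative. From the processed intensities, the log2 of each spot minus that of the array's 75th percentile was taken, outlier spots (614 mock, 935 *miR-139-5p*, 1526 *miR-139-3p*) were left out and spots of a probe averaged. A probe was well above background where at least 50% of its spots were. A gene's value averages those of its probes that passed this on both arrays. Where none was, the brightest probe well above background on 1 array gave a bound, for which the dim array took its own signal or the array's lowest signal well above background, whichever was higher. Of 58201 probes, 31104 matched a RefSeq symbol (GRCh38.p14) by accession, and others kept their deposited names. A threshold of 0.5 on the log2 scale was used.

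The gene lists, members and rules were chosen with earlier results of these data known. Named are the 12 largest measured differences each way, the 5 largest bounds, and for each of the 24 lists the 3 members farthest in the direction of its median and 1 the other way. Further list members given by their difference were added after their values were seen. The published target and pathway lists were compiled from general knowledge, and some genes, among them some that these rules named, are not reported here. No test was made, with 1 array a condition, and the difference between spots of one probe (median SD 0.05 to 0.06) covers the spread within an array only. The steps were tested on simulated data. Other settings changed scaling, background correction (normexp, offset 50), the dim-probe filter, the probe chosen per gene, outlier spots, the trend on level (lowess over 0.3 of the genes) and the threshold. Python 3.11.15 with numpy 2.4.6, pandas 2.3.3, statsmodels 0.14.6 and matplotlib 3.10.9, and R 4.3.3 with limma 3.58.1, were used.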

Additional observations from a re-analysis of the deposited data

Results flagged for a closer look

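There were 1176 control spots for ERCC spike-in RNA on each array. With *miR-139-3p*, 93 of them (7.91%) were well above background, compared with 20 (1.70%) for *miR-139-5p* and 30 (2.55%) for mock. No comparison uses these spots, and the labels do not say whether such RNA was added. Their part in the results was not tested.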

How the results depend on the processing

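Of the settings, 2 moved the counts of genes by over 1.5 times. With normexp background correction and its offset of 50, the genes lower with *miR-139-3p* numbered 2847 and the higher ones 1585. With a threshold of 1 there were 1853 and 1977, against 4303 and 4075 in the main setting. The correction and the offset were not tried apart. Under the other 10 settings both counts stayed within 1.5 times. Of the list medians, 254 of 264 values moved by less than the median SD between probes of one gene, 0.26, and 10 moved by more. Under normexp these were -0.77 for the study's list, -0.87 for recombination, 1.15 for p53 targets, 0.77 for cytokines and -1.02 for published *miR-139-3p* targets. With no filter on dim probes the cytokine list had 0.34. The acute-phase list had -0.72 with quantile normalization, -0.78 in the deposited table, -0.55 with probes well above background on both arrays only and -0.48 with the trend on level removed. The medians that changed sign were those of the sterol, immediate early, interferon, miRNA machinery and ribosomal lists, all between -0.12 and 0.05 at first. Normexp moved 81 of the 120 named genes by more than that SD. Of the 112 that lay past the threshold, 104 were smaller under it, 0 changed sign and 9 came to lie within the threshold, among them *HK2* (-2.34 to -0.42), *CFB* (1.29 to 0.19), *ZEB2* (-1.03 to -0.12) and *YBX2* (1.14 to 0.39). *LAMA4* turned from 1.83 to -0.35 with no filter on dim probes. The cause of these changes was not tested. No paired analysis was possible because each condition had 1 array, and for the same reason no array could be left out. The bounds of *NPHS1*, *NTN1*, *TNFRSF14*, *FEZ1* and *PINCR* have no value where bounds are not used, and under normexp their differences were 1.27 to 1.73. Genes not well above background on either array, among them *MMP11* and *CCND2*, could not be compared at this signal.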

Other observations

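Of 2797 protein-coding genes that were measured on all 3 arrays and more than 1 apart on the log2 scale, 1229 had a *miR-139-5p* level within 0.26 of mock, and 90 had a *miR-139-3p* level within 0.26 of mock. Of the 90, 51 were lower with *miR-139-3p* and 39 higher. *THTPA*, among the 39, fell in both counts, since each comparison used the probes well above background on its own arrays. The genes of both counts were chosen after their values were seen, and both counts rest on 1 mock array. That array lay on slide 1 with *miR-139-5p*, while *miR-139-3p* lay on slide 2, so slide and strand cannot be told apart in these counts. In the order *miR-139-3p*, *miR-139-5p*, mock, *TMEM45A* had levels of -1.66, 0.89 and -1.56, and *STC1*, the secreted glycoprotein stanniocalcin 1, had levels of -4.17, -1.86 and -4.08. *VEGFC*, a lymphatic growth factor, had 2.56, 3.69 and 2.35, and *SERPINB9*, an inhibitor of granzyme B, had 1.29, 2.75 and 1.28. In these genes *miR-139-5p* was the array that stood high. It stood low in *SGPL1*, the lyase that degrades sphingosine 1-phosphate, with 2.42, 0.54 and 2.38, in *ACADM*, a dehydrogenase of fatty acid oxidation, with 0.13, -1.42 and -0.07, and in *TNNC1*, a troponin, with -0.39, -3.19 and -0.53. The adenylosuccinate synthase gene *ADSS1* had 2.05, 0.52 and 2.06.

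Grouped by the letters that open their symbols, 158 families had at least 10 measured members. The lowest median differences were -1.47 in the MCM family (7 of 10 lower), -1.28 in the GALNT family of transferases that start mucin-type glycans (9 of 13 lower, 1 higher) and -0.86 in the CDC family (16 of 26 lower, 2 higher). The FKBP family of prolyl isomerases had -0.72 (10 of 13 lower, 0 higher) and the NUP family of nucleoporins -0.67 (12 of 21 lower, 0 higher). The highest were 1.00 in the keratin-associated proteins (22 of 28 higher, 1 lower) and 0.90 in the matrix metalloproteinases (8 of 10 higher, 0 lower). These families were ranked on the values themselves and were not tested; over all genes 27.9% were lower and 26.4% higher, and 38.7% were higher in the lowest of 4 equal bins of level.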
